A study of Mus musculus with 32 samples.

Results

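The 47 genes described here encode the machinery that carries insulin granules to the plasma membrane, holds them there and fuses them with it. They were taken from a fixed list of symbols in 11 roles: SNAREs, SM proteins, synaptotagmins, Rab GTPases, Rab effectors and scaffolds, priming factors, complexins, motors, exocyst subunits, SNARE recycling factors and the calcium sensor Scgn. All 47 were found among the 21945 genes of the RNA table and the 21927 genes of the ribosome-protected footprint (RPF) table. The cells were wildtype MIN6, a mouse insulinoma line used as a model of the β cell and normally propagated in 25 mM glucose. Cultures were kept for 24 hours in 25 mM glucose or in 5.5 mM glucose, with 8 cultures at each concentration, and all of them received 100 µg/ml cycloheximide for 5 minutes before lysis to hold ribosomes in place. From every culture, footprints and polyadenylated RNA were sequenced as separate libraries. The cultures fall into 2 batches of 4 per glucose concentration, and the sample titles do not say which step the batches stand for. The design asks which genes gain or lose footprints after a day in high glucose, and which of these changes follow the RNA. All cultures were of this single tumor-derived line, so no islet or animal is represented.

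Regulated exocytosis ends when a vesicle SNARE (VAMP) pairs with the plasma membrane SNAREs syntaxin and SNAP-25 and the resulting bundle pulls the membranes together. Before that step, kinesin and myosin motors bring granules to the cell cortex, Rab3 and Rab27 with their effectors tether them, and Munc13 (Unc13) and CAPS (Cadps) proteins prime them for release. Synaptotagmins sense calcium or modulate fusion, complexins clamp or promote it, and NSF with SNAP adaptor proteins takes spent SNARE bundles apart so that they can be used again.

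Total counts were 363569 to 3283379 in the RPF libraries at 25 mM and 392529 to 7012999 at 5.5 mM. In RNA they were 16423766 to 33623502 at 25 mM and 3014785 to 17542565 at 5.5 mM. At 5.5 mM, 5 RNA libraries had fewer than 10000000 counts and stood apart, with 0.159% to 1.09% of counts on Ins1 and Ins2, against 4.40% to 8.08% in the other 3 and 3.98% to 6.51% at 25 mM. The RPF library labelled 25 mM replicate 8 also stood apart, being the 25 mM library closest to the 5.5 mM levels for 13 of the 18 exocytosis genes with changed RPFs. Since these same values picked it out, fits without it tend to widen their differences and are no independent support. Its depth of 732164 counts and TMM factor of 0.984 lay within the range of the other RPF libraries at 25 mM. Its share of counts on Ins1 and Ins2, 13.5%, was the highest of them. Results that rest on the libraries that stood apart are given with and without them. The 10 β cell markers each had medians of at least 1 CPM (counts scaled to the library total and the TMM factor) in both conditions, while the acinar, endothelial, fibroblast and leukocyte markers had medians under it in both layers. Ductal Krt19 RNA was 13.6 to 29.3 CPM at 25 mM. At 5.5 mM it was 12.5 to 16.8 CPM in the 3 deeper libraries and 1.72 to 15.7 CPM in the 5 low-depth ones. Krt19 RPFs were 47.4 to 83.5 CPM at 25 mM, against 23.7 to 75.3 CPM at 5.5 mM. Sox9, the other ductal marker, had RNA of 0 to 0.0334 CPM at 25 mM. At 5.5 mM it had 0 to 0.263 CPM in the 3 deeper libraries and 0.272 to 3.02 CPM in the 5 low-depth ones. These levels rested on 4 counts in the deeper and 17 in the low-depth libraries. Sox9 had no RPF counts in either condition. Ppy (pancreatic polypeptide) RNA was 3.83 to 31.1 CPM at 25 mM. At 5.5 mM it was 3.21 to 26.2 CPM in the 3 deeper libraries and 0 to 3.80 CPM in the 5 low-depth ones. Ppy RPFs were 6.71 to 103.7 CPM at 25 mM, against 5.97 to 52.4 CPM at 5.5 mM. The 4 α cell markers moved with glucose: their summed RPFs were 160.8 to 450.2 CPM at 25 mM, against 103.6 to 210.1 CPM at 5.5 mM, and their summed RNA was 132.1 to 239.0 CPM at 25 mM, against 9.27 to 110.4 CPM at 5.5 mM. Gcg (glucagon) gave most of this signal, and the part of these genes in the results was not tested. Gcg RNA was 126.5 to 233.8 CPM at 25 mM. At 5.5 mM it was 46.0 to 106.7 CPM in the 3 deeper libraries and 8.78 to 17.7 CPM in the 5 low-depth ones. In bulk cultures, a change in the number of cells expressing a gene and a change in RNA per cell cannot be told apart.

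Promoter windows of 4 genes are shown because each holds a short motif bound by a known factor family (E-box by basic helix-loop-helix factors, CRE by CREB, AP-1 site by Fos and Jun) and its gene passed at least 1 of the tests below. They were chosen after the values were seen. RefSeq (GRCm38.p6) gave a window of 250 bases before to 50 after the start for 35 of the 47 genes. Capitals mark the motif: an AP-1 site (TGANTCA) upstream of Scgn on chr13:23991387-23991416 (minus strand), a CRE (TGACGTCA) upstream of Kif5c on chr2:49619249-49619278 (plus strand), and an E-box (CACGTG) at Exoc1 on chr5:76529307-76529336 (plus strand) and upstream of Nsf on chr11:103954213-103954242 (minus strand).
Scgn: agtttgaaaggTGAGTCAacctgaagagaa
Kif5c: gatctctgcagTGACGTCAccgtgccgagg
Exoc1: ggtgcagagagaCACGTGaccggatacggg
Nsf: ccattaaaaggcCACGTGgccagctttgtg
Searched on both strands, the E-box letters were in at least 1 window of 7 of the 35 genes (20%), against 8.09% of all 27025 genes with RefSeq windows of the same length. The CRE letters were in 8.57% of the exocytosis genes with a window and 2.03% of all genes, and the AP-1 letters in 5.71% and 8.97%. The 7 genes with an E-box were Cadps2, Exoc1, Napa, Nsf, Rab27a, Stxbp2 and Unc13b, of which only Exoc1 passed the RPF test with all libraries. The matches describe letters in these windows and were not tested for binding.

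RPFs of the exocytosis genes moved in both directions at 25 mM. Of the 39 with enough footprints to test, 9 rose and 9 fell at an adjusted p under 0.1 in edgeR's quasi-likelihood test. Over all 8709 genes tested, 15.5% rose and 15.4% fell (30.9% in all). Their median log2 fold change was -0.02, beside -0.01 for all genes, and the range ran from -0.84 for Scgn to 0.92 for Napb. The genes that rose were Snap25, Vamp3, Syt13, Rab3a, Rab3d, Rapgef4, Unc13a, Kif5c and Napb. Those that fell were Syt7, Sytl4, Pclo, Cadps, Cplx2, Exoc1, Exoc2, Exoc4 and Scgn. Without 25 mM replicate 8, the same 18 genes passed in the same directions and Vamp2, Syt5 and Unc13b (higher) and Kif5a (lower) joined them, with 17.6% of 9237 genes higher and 17% lower. That library was picked out by the RPFs of the 18 genes, so this fit is no independent check of them. All 18 had the same sign within each batch where they could be tested. In the second batch alone, 1 rose (Syt13) and 3 fell (Syt7, Pclo and Scgn), beside 2.92% of 6751 genes higher and 1.39% lower. The batches have equal numbers of cultures, but RPF libraries had at most 732164 counts in the second and at least 1235662 in the first. Without the 5 cultures whose RNA libraries were of low depth, 4 rose and 5 fell, beside 6.27% of 9724 genes higher and 4.75% lower. Snap25, Vamp3, Rab3a, Rapgef4, Cadps, Kif5c, Exoc1, Exoc2 and Exoc4 did not pass there (edgeR adjusted p of 0.16 to 0.51). Of these, all but Rab3a and Rapgef4 also did not pass in either batch alone.

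**Figure D1:**
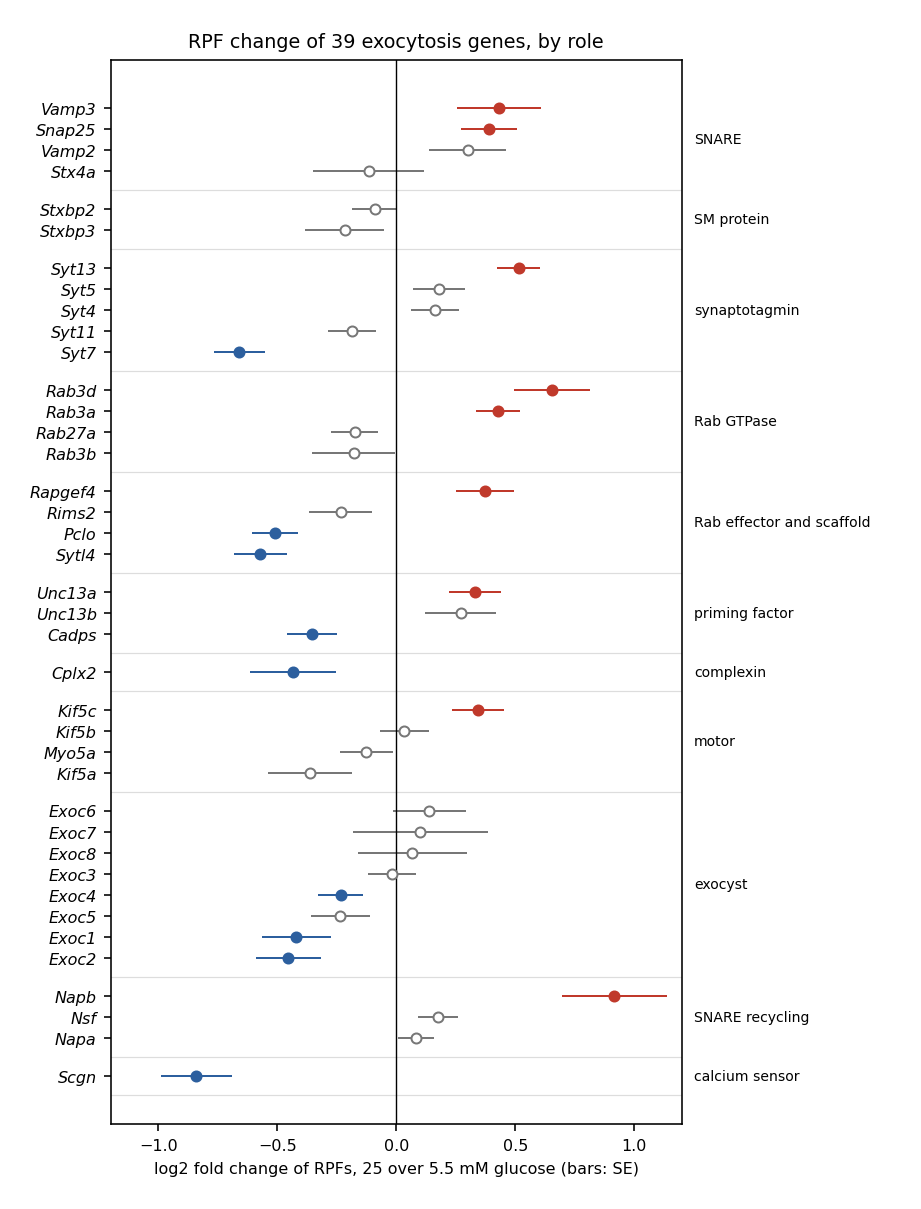
Log2 fold change of RPFs at 25 mM over 5.5 mM glucose (x axis, point; bar, SE from the test) for the 39 exocytosis genes tested, grouped by role; filled red points rose, filled blue points fell and open gray points did not pass an adjusted p under 0.1. Napb lies highest at 0.92 and Scgn lowest at -0.84, and the 3 exocyst subunits past the test, Exoc1, Exoc2 and Exoc4, lie below 0.

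Among the SNAREs, Snap25, the membrane-anchored SNARE that contributes both of its helices to the fusion bundle, had RPFs of 79.0 to 120.9 CPM (median 107.2) at 25 mM and 60.5 to 102.9 CPM (median 74.2) at 5.5 mM. It was higher by 0.39 ± 0.12 (log2, SE, n = 8 each, edgeR adjusted p = 0.017), and 5 of the 8 libraries at 25 mM lay above every library at 5.5 mM. Vamp3, a vesicle SNARE known from constitutive and recycling traffic, had 15.5 to 41.3 CPM (median 33.7) at 25 mM and 6.43 to 36.3 CPM (median 25.1) at 5.5 mM, so the groups overlapped widely. Its rise of 0.43 ± 0.18 (edgeR adjusted p = 0.079) was lost when any of replicates 1, 2, 4, 5, 6 or 7 was left out, at adjusted p of 0.101 to 0.228. For Vamp2, the main vesicle SNARE of insulin granules, the log2 difference was 0.30 ± 0.16 with all libraries and 0.36 ± 0.16 without 25 mM replicate 8, and the adjusted p was 0.19 with all libraries and 0.096 without it. Stx4a had a log2 difference of -0.12 ± 0.23 and did not pass, and Stx1a, the syntaxin of fast granule fusion, had too few footprints to test with all libraries, at 261 in the 16, and a log2 difference of 0.21 ± 0.32 that did not pass without 25 mM replicate 8. The SM proteins Stxbp2 and Stxbp3, which clasp syntaxins during SNARE assembly, had log2 differences of -0.09 and -0.22 and did not pass.

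The synaptotagmins divided. Syt13, an atypical member without a conserved calcium-binding site, had RPFs of 599.4 to 995.4 CPM (median 782.6) at 25 mM and 513.3 to 593.4 CPM (median 541.0) at 5.5 mM. Every library at 25 mM was above every library at 5.5 mM, and the gene rose by 0.51 ± 0.09 (log2, SE, n = 8 each, edgeR adjusted p = 2.0e-04). Syt7, a high-affinity calcium sensor of insulin granule release, went the other way. Its RPFs were 80.2 to 160.8 CPM (median 101.8) at 25 mM and 126.9 to 218.6 CPM (median 166.5) at 5.5 mM. It fell to 0.63 of the 5.5 mM level (log2 -0.66 ± 0.11, edgeR adjusted p = 8.1e-05), and 7 of the 8 libraries at 25 mM were below every library at 5.5 mM, replicate 8 being the exception. Syt4, Syt5 and Syt11 had log2 differences of 0.16, 0.18 and -0.19 and did not pass with all libraries.

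Rab3a and Rab3d, GTPases on the granule surface, both gained footprints. Rab3a had 110.0 to 213.1 CPM (median 163.2) at 25 mM and 85.9 to 160.5 CPM (median 125.1) at 5.5 mM, a rise of 0.43 ± 0.09 (log2, SE, n = 8 each, edgeR adjusted p = 0.0015). The level depended on the batch: it averaged 190.4 CPM at 25 mM and 143.7 CPM at 5.5 mM in the first batch, and 140.4 CPM at 25 mM and 98.6 CPM at 5.5 mM in the second. Rab3d had 42.3 to 96.9 CPM (median 87.2) at 25 mM and 30.5 to 74.6 CPM (median 48.4) at 5.5 mM, and rose by 0.66 ± 0.16 (edgeR adjusted p = 0.0038). Replicate 8 was the lowest 25 mM library for both. The log2 differences of Rab3b and Rab27a were -0.18 and -0.17 and did not pass, and Rab3c and Rab27b had 34 and 7 footprints in all 16 libraries and could not be tested.

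Effectors and scaffolds mostly went down where they passed. Sytl4 (granuphilin), which docks granules by binding Rab27a and syntaxins, had 272.8 to 490.8 CPM (median 320.5) at 25 mM and 369.6 to 635.7 CPM (median 506.9) at 5.5 mM. It fell by 0.57 on the log2 scale (SE 0.11, edgeR adjusted p = 5.7e-04), and 6 of the 8 libraries at 25 mM were below all of those at 5.5 mM. Pclo (Piccolo), a large active-zone scaffold that binds Rapgef4 in β cells, had 404.0 to 691.1 CPM (median 510.0) at 25 mM and 589.9 to 851.5 CPM (median 723.4) at 5.5 mM. Only 25 mM replicate 8 reached the 5.5 mM range, and Pclo fell by 0.51 (SE 0.10, edgeR adjusted p = 3.6e-04). Rapgef4 (Epac2), the cAMP sensor that potentiates insulin release, had 64.9 to 161.9 CPM (median 140.1) at 25 mM and 73.3 to 116.4 CPM (median 107.9) at 5.5 mM. The lowest value belonged to replicate 8 and 6 of the other libraries at 25 mM were above all at 5.5 mM, a rise of 0.37 ± 0.12 (edgeR adjusted p = 0.028). Rims2 had a log2 difference of -0.23 ± 0.13 and did not pass, while Rims1 and Myrip could not be tested.

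**Figure D2:**
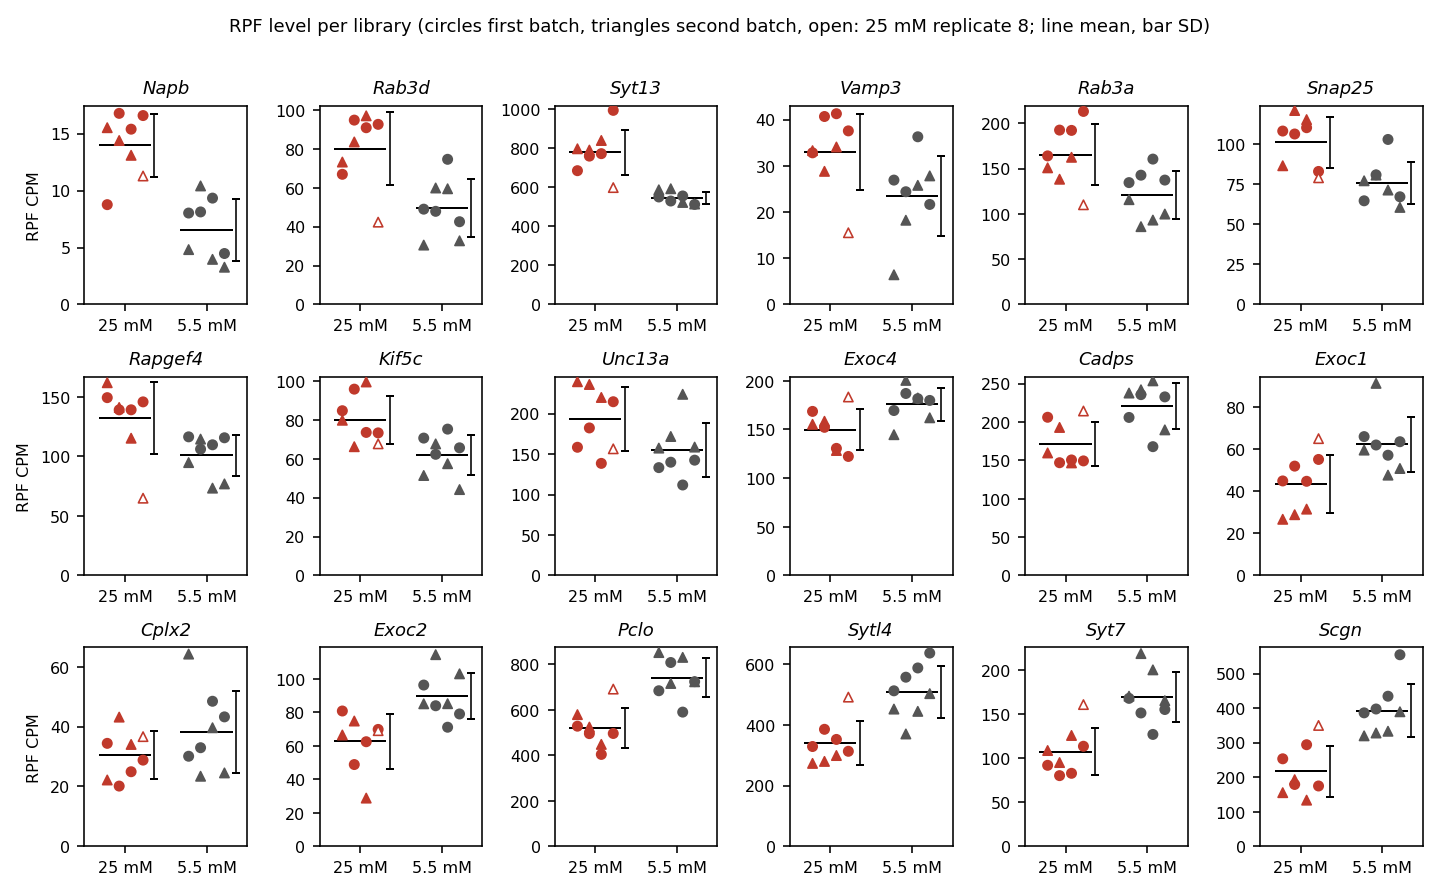
RPF level in CPM (y axis, linear from 0) of the 18 exocytosis genes with changed RPFs in each library at 25 mM (red, left) and 5.5 mM (gray, right); circles are the first batch, triangles the second, the open triangle is 25 mM replicate 8, lines are means and bars SD (n = 8 each). The groups separate completely for Syt13, and for Syt7, Pclo, Scgn and Napb 7 of the 8 libraries at 25 mM lie outside the 5.5 mM range.

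The priming factors also divided. Unc13a (Munc13-1), which opens syntaxin for SNARE assembly, had 138.6 to 239.5 CPM (median 198.6) at 25 mM and 111.8 to 224.0 CPM (median 150.0) at 5.5 mM, with overlapping groups and a rise of 0.33 ± 0.11 (log2, SE, n = 8 each, edgeR adjusted p = 0.030). Cadps (CAPS-1), required for loading and priming of dense-core granules, had 146.7 to 214.4 CPM (median 155.1) at 25 mM and 167.9 to 253.7 CPM (median 234.3) at 5.5 mM. It fell by 0.36 on the log2 scale (SE 0.10, edgeR adjusted p = 0.014), with 5 libraries at 25 mM below all at 5.5 mM. Unc13b had a log2 difference of 0.27 ± 0.15 and did not pass with all libraries, and Cadps2 and Doc2b were too low to test. Cplx2, the complexin that binds assembled SNARE bundles, had 20.1 to 43.2 CPM (median 31.4) at 25 mM and 23.4 to 64.3 CPM (median 36.3) at 5.5 mM. Its fall of 0.43 (SE 0.18, edgeR adjusted p = 0.084) came with broad overlap and was lost without replicate 2, 3, 4, 5 or 7, at adjusted p of 0.113 to 0.347. Cplx1 had 6 footprints in all libraries and could not be tested.

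Among the motors, Kif5c, a kinesin-1 heavy chain, had 66.2 to 99.6 CPM (median 76.7) at 25 mM and 44.2 to 75.3 CPM (median 64.0) at 5.5 mM. It rose by 0.34 ± 0.11 (log2, SE, n = 8 each, edgeR adjusted p = 0.025), and without replicate 2 the adjusted p was 0.115. The paralog Kif5b, the kinesin-1 heavy chain known to move insulin granules, had 319.6 to 540.4 CPM at 25 mM, against 313.8 to 468.5 CPM at 5.5 mM, a log2 difference of 0.03 ± 0.10 that did not pass. Kif5a, the third heavy chain, had a log2 difference of -0.36 ± 0.18 with all libraries (edgeR adjusted p = 0.14) and -0.45 ± 0.17 without 25 mM replicate 8 (edgeR adjusted p = 0.052). The 3 heavy chains are similar in sequence, and how reads shared between them were counted is not given in the sources used here. Myo5a, the myosin that moves granules through cortical actin, had a log2 difference of -0.13 and did not pass.

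The exocyst, the 8-subunit complex that tethers vesicles to the plasma membrane, had 3 subunits that fell and 5 that did not pass. Exoc1 had 26.6 to 64.9 CPM (median 44.7) at 25 mM and 47.6 to 91.1 CPM (median 60.7) at 5.5 mM, a fall of 0.42 on the log2 scale (SE 0.14, n = 8 each, edgeR adjusted p = 0.035). Exoc2 had 28.8 to 80.9 CPM (median 67.8) at 25 mM and 71.2 to 114.5 CPM (median 85.2) at 5.5 mM, a fall of 0.45 (SE 0.14, edgeR adjusted p = 0.017). For Exoc1, 5 libraries at 25 mM were below all at 5.5 mM, and for Exoc2, 6 were. Exoc4 had 122.2 to 183.3 CPM (median 153.7) at 25 mM and 144.6 to 200.4 CPM (median 180.7) at 5.5 mM. Its smaller fall of 0.23 (SE 0.09, edgeR adjusted p = 0.075) was lost without replicate 2, 3, 4, 6 or 7, at adjusted p of 0.135 to 0.210. Exoc3, Exoc5, Exoc6, Exoc7 and Exoc8 had log2 differences of -0.02, -0.24, 0.14, 0.10 and 0.07. Exoc8 RPFs differed most between batches: they averaged 100.2 CPM at 25 mM and 112.3 CPM at 5.5 mM in the first batch, and 245.4 CPM at 25 mM and 190.5 CPM at 5.5 mM in the second.

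The widest changes were in a recycling factor and a calcium sensor. Napb (β-SNAP), the neuronal-type adaptor that recruits NSF to SNARE bundles, had 8.77 to 16.8 CPM (median 14.9) at 25 mM and 3.27 to 10.4 CPM (median 6.43) at 5.5 mM. It was 1.89-fold higher at 25 mM (log2 0.92 ± 0.22, n = 8 each, edgeR adjusted p = 0.0033), with 7 of the 8 libraries above all at 5.5 mM. The level rested on few footprints, 5 to 50 per library at 25 mM and 2 to 68 at 5.5 mM, and without replicate 1, 2, 3 or 4 the gene was too low to test. The related Napa (α-SNAP) and the ATPase Nsf had log2 differences of 0.08 ± 0.08 and 0.18 ± 0.08 and did not pass. Scgn (secretagogin), an EF-hand protein that binds SNAREs, had 133.6 to 349.8 CPM (median 186.0) at 25 mM and 319.7 to 554.4 CPM (median 387.8) at 5.5 mM. It fell to 0.56 of the 5.5 mM level (log2 -0.84 ± 0.15, edgeR adjusted p = 2.2e-04), or by 1.01 (SE 0.12) without replicate 8, the only 25 mM library within the 5.5 mM range.

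RNA of the same genes spanned a wider range than RPFs and depended on the 5 low-depth libraries. With all libraries, RNA of 6 of 45 tested genes was higher and of 13 lower (edgeR's quasi-likelihood test, adjusted p under 0.01), beside 16.4% of 12365 genes higher and 24.2% lower (40.7% in all). Without these libraries, 3 of 46 were higher and 7 lower, beside 10.4% of 12918 genes higher and 19.2% lower (29.6% in all). Both times, 6 genes passed, all with the same sign: Rapgef4 and Nsf higher, and Syt11, Rab3c, Cplx2 and Exoc4 lower. The share of all genes that passed both times was not computed, so this overlap is a description only. Another 13 passed only with all libraries (Snap25, Syt5, Unc13b and Exoc2 higher, and Syt4, Rims2, Sytl4, Pclo, Doc2b, Kif5a, Kif5b, Kif5c and Napb lower) and 4 only without them (Myo5a higher, and Stx4a, Napa and Scgn lower). Scaling by library size alone moved the median log2 fold change of all genes to 0.82, from 0.12 with TMM, and gave 6 exocytosis genes higher, 3 of them shared with TMM scaling, and 5 lower, all 5 shared, beside 17.6% of all genes higher and 10.9% lower. The first batch alone gave none in either direction, with 12 exocytosis genes and 3526 genes in all at an unadjusted p under 0.05. Changes of RNA are therefore relative to this scaling.

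Rapgef4 RNA was 122.5 to 149.3 CPM at 25 mM, against 18.4 to 96.2 CPM in the 3 deeper libraries at 5.5 mM and 1.85 to 20.6 CPM in the 5 low-depth libraries. The 25 mM libraries lay above both sets, and the rise was 2.42 ± 0.52 (log2, SE) with all libraries (edgeR adjusted p = 0.0010) and 1.52 ± 0.38 without the 5 (edgeR adjusted p = 0.0070). Nsf RNA was 104.2 to 121.8 CPM at 25 mM, against 36.2 to 91.1 CPM in the deeper and 2.22 to 23.7 CPM in the low-depth libraries at 5.5 mM. It rose by 1.87 ± 0.50 with all libraries (edgeR adjusted p = 0.0045), lost without replicate 2, 5, 6, 7 or 8 (adjusted p 0.0106 to 0.0175) and when scaled by library size (adjusted p = 0.0146), and by 0.92 ± 0.22 without the 5 (edgeR adjusted p = 0.0061).

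Cplx2 RNA was 202.0 to 353.2 CPM at 25 mM, against 457.1 to 940.5 CPM in the deeper and 4389 to 9109 CPM in the low-depth libraries at 5.5 mM. The groups did not overlap, and the log2 fold change was -3.88 ± 0.59 with all libraries (edgeR adjusted p = 9.2e-05) and -1.41 ± 0.20 without the 5 (edgeR adjusted p = 5.8e-04). Syt11, a synaptotagmin that does not bind calcium, showed the same order: 128.3 to 154.7 CPM at 25 mM, against 186.8 to 1093 CPM in the deeper and 3169 to 4745 CPM in the low-depth libraries at 5.5 mM. Its log2 fold change was -4.23 ± 0.59 with all libraries (edgeR adjusted p = 6.8e-05) and -1.97 ± 0.32 without the 5 (edgeR adjusted p = 9.7e-04). Exoc4 RNA was 65.6 to 89.3 CPM at 25 mM, against 78.9 to 306.3 CPM in the deeper and 120.5 to 318.0 CPM in the low-depth libraries, with log2 fold changes of -1.34 ± 0.26 (edgeR adjusted p = 4.7e-04) and -1.03 ± 0.22 (edgeR adjusted p = 0.0036). Scaled by library size, Exoc4 no longer passed (adjusted p = 0.17). Rab3c RNA was low, at 0.807 to 2.04 CPM at 25 mM, against 2.41 to 2.93 CPM in the deeper and 0 to 12.5 CPM in the low-depth libraries. Its log2 fold changes were -1.68 ± 0.39 (edgeR adjusted p = 0.0018) and -1.02 ± 0.21 (edgeR adjusted p = 0.0028), and it did not pass when scaled by library size (adjusted p = 0.10) or in either batch alone (0.093 and 0.027).

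Scgn RNA differed between the 2 sets of 5.5 mM libraries more than between glucose concentrations. It was 104.2 to 137.4 CPM at 25 mM, against 223.9 to 238.6 CPM in the deeper and 41.8 to 88.0 CPM in the low-depth libraries at 5.5 mM. The 25 mM libraries thus lay between the sets, and the log2 fold change was 0.03 ± 0.40 with all libraries (edgeR adjusted p = 0.96) and -0.96 ± 0.12 without the 5 (edgeR adjusted p = 3.1e-04). Kif5b and Pclo passed only with the low-depth libraries. Kif5b RNA was 241.4 to 397.9 CPM at 25 mM, against 201.1 to 1048 CPM in the deeper and 2632 to 6608 CPM in the low-depth libraries. Pclo RNA was 69.2 to 118.9 CPM at 25 mM, against 42.5 to 167.3 CPM in the deeper and 1080 to 2111 CPM in the low-depth libraries.

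**Figure D3:**
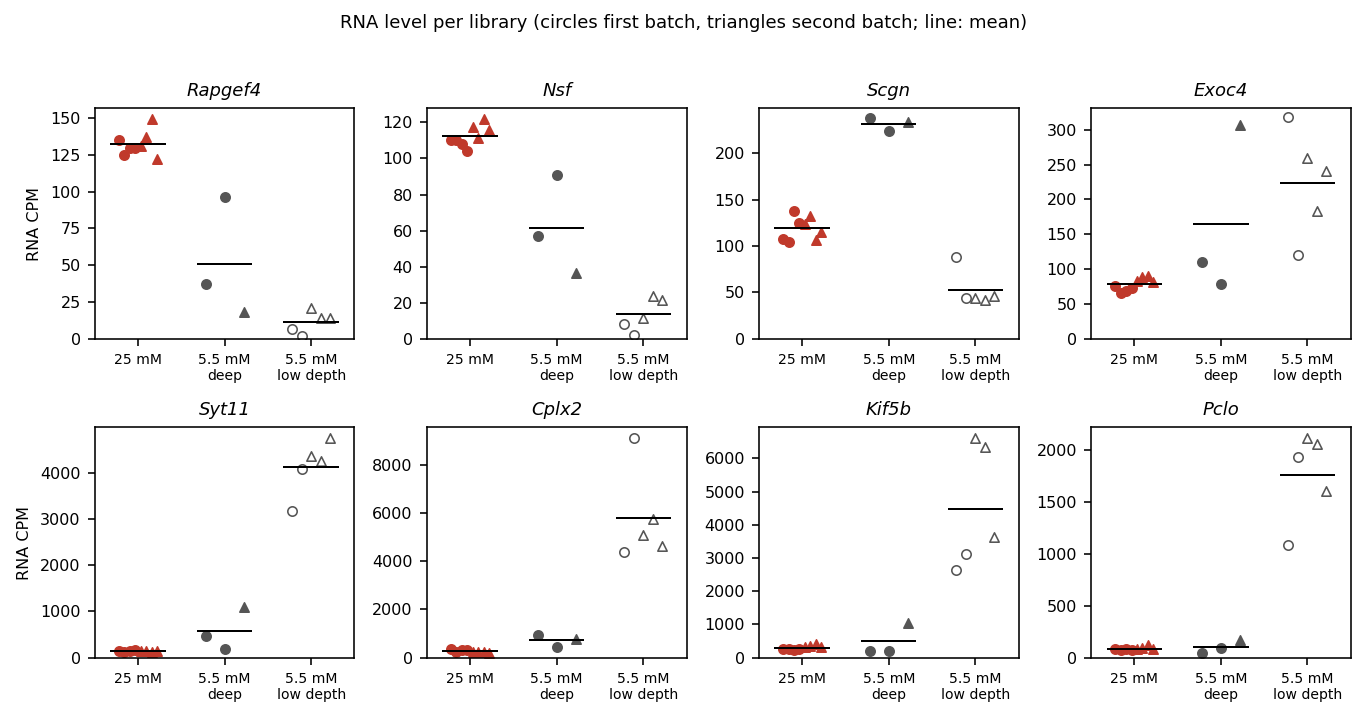
RNA level in CPM (y axis, linear from 0) of 8 exocytosis genes, chosen after their values were seen, in each library at 25 mM (red), in the 3 deeper libraries at 5.5 mM (filled gray) and in the 5 low-depth libraries at 5.5 mM (open); circles are the first batch, triangles the second, and lines are means. Scgn at 25 mM lies between the 2 sets of 5.5 mM libraries, while Syt11, Cplx2, Kif5b and Pclo are highest in the low-depth set.

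RPF and RNA changes were then set side by side for the 18 genes with changed RPFs. RNA had the same sign as RPFs in 10 of them (55.6%) with all RNA libraries and in 12 (66.7%) without the 5, beside 65.3% and 65.6% of all genes with changed RPFs. With all libraries, RNA passed its own test in the same direction for 6 of the 18 (33.3%) and in the opposite direction for 3 (16.7%), beside 36.5% and 8.23% of all genes with changed RPFs. Without the 5, it passed in the same direction for 4 (22.2%) and did not pass for the other 14, beside 34.4% in the same and 4.48% in the opposite direction. Over the 39 genes, the SD of the log2 fold changes was 0.38 for RPFs and 1.68 for RNA, or 0.75 for RNA without the 5, and over all genes tested it was 0.365, 1.48 and 0.745. Scgn, Cplx2, Exoc4 and Rapgef4 were the 4 whose RNA and RPFs moved together without the low-depth libraries. For Napb, Rab3d and Syt13, the 3 largest rises in RPFs, the log2 fold changes of RNA without the 5 were -0.11 ± 0.23, 0.19 ± 0.14 and 0.05 ± 0.12, and none passed.

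**Figure D4:**
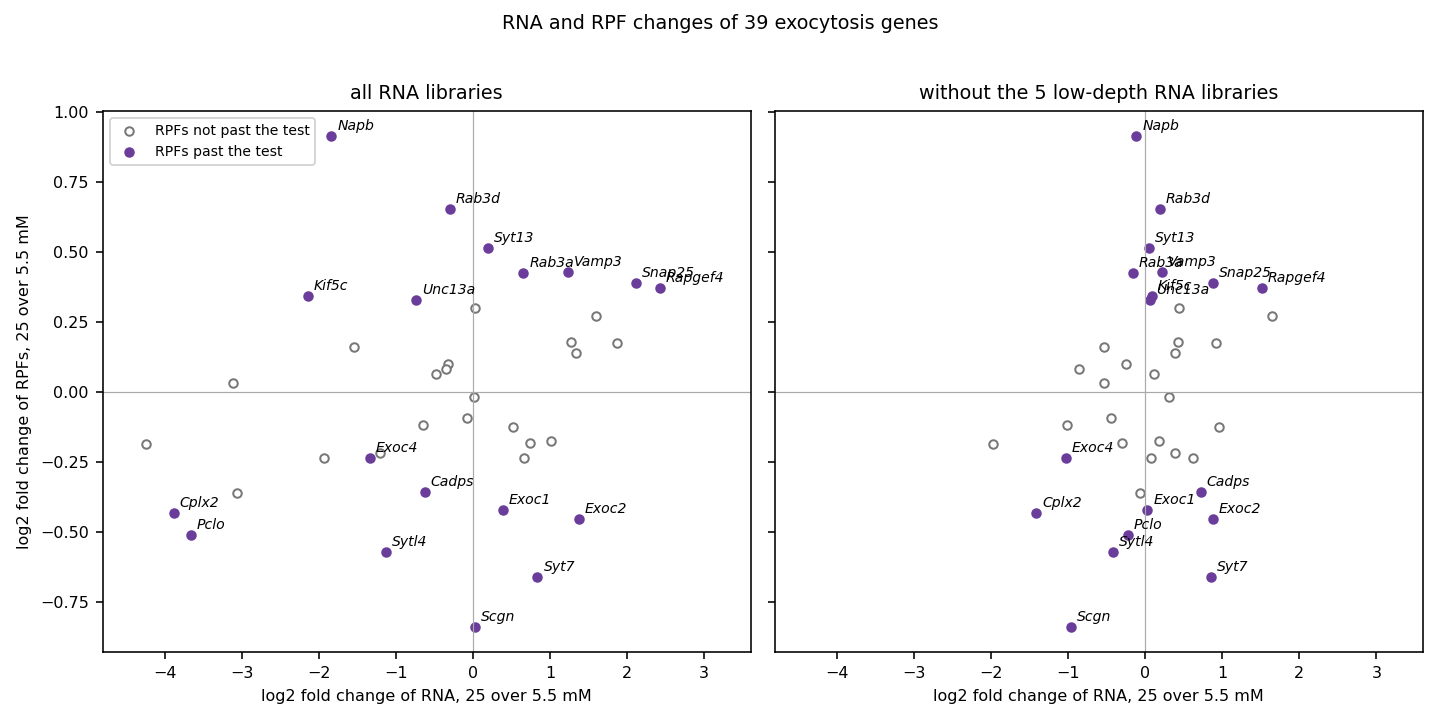
Log2 fold change of RPFs (y axis) against that of RNA (x axis), both 25 mM over 5.5 mM, for the 39 exocytosis genes tested, with all RNA libraries (left) and without the 5 low-depth RNA libraries (right); filled points are the 18 genes with changed RPFs. The SD along the x axis is 1.68 on the left and 0.75 on the right.

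Translational efficiency (TE), the RPF level relative to RNA, was tested in a model of both layers, as the RPF change beyond the RNA change. The model did not use that the RNA and RPF libraries of a culture belong together. Limma fits of TE per culture did, and with a pseudocount of 0.5 CPM gave 11 exocytosis genes higher and 15 lower. Over all genes that fit gave 2167 higher and 3571 lower of 8637. The counts below are from the edgeR model. TE was higher for 16 of 39 genes and lower for 12 (edgeR's quasi-likelihood test, adjusted p under 0.1), where 31.2% of 8637 genes were higher and 28.6% lower (59.9% in all). Without the 5 low-depth RNA libraries and the RPF library of 25 mM replicate 8, 14 of 40 were higher and 10 lower, where 27.4% of 9165 genes were higher and 26.3% lower (53.7% in all). The median log2 change was 0.42 with all libraries, beside -0.10 for all genes, and 0.01 without the 6 libraries, beside 0.01. The same sign passed both times for 17 genes, and the matching share of all genes was not computed. Syt4, Syt11, Syt13, Rab3d, Unc13a, Cplx2, Kif5b, Exoc4, Exoc7 and Napb were higher, and Syt7, Rapgef4, Unc13b, Myo5a, Exoc1, Exoc2 and Nsf were lower. Stxbp3 and Rims2 passed both times with opposite signs. Scaling by library size moved the median TE change of all genes to -0.91 and gave 8 exocytosis genes higher and 16 lower, beside 13.3% of all genes higher and 48.7% lower. Since TE contains the RNA change with its sign turned, these calls share the RNA libraries described above.

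Some of the genes whose TE rose had lower RNA at 25 mM and others had higher RPFs. Syt11 and Cplx2, with lower RNA, had the largest rises with all libraries. Syt11 had a log2 TE of -0.80 to 0.08 (median -0.23) at 25 mM and -5.39 to -0.17 (median -4.37) at 5.5 mM, a change of 4.20 ± 0.55 with all libraries (edgeR adjusted p = 6.0e-06) and 1.87 ± 0.32 without the 6 (edgeR adjusted p = 2.2e-04). Cplx2 had -3.69 to -2.45 (median -3.31) at 25 mM and -7.73 to -3.22 (median -7.10) at 5.5 mM, with changes of 3.65 ± 0.59 (edgeR adjusted p = 1.8e-05) and 1.04 ± 0.30 (edgeR adjusted p = 0.0079). Of the 3 cultures at 5.5 mM with deeper RNA libraries, replicate 3 reached the 25 mM range for Syt11, and replicates 3 and 5 did for Cplx2. Exoc4, also with lower RNA, had changes of 1.22 ± 0.28 with all libraries and 0.83 ± 0.23 without the 6. Kif5b had 3.27 ± 0.58 and 0.61 ± 0.28, and Syt4 had 1.81 ± 0.35 and 0.79 ± 0.25, both with RNA calls that needed the low-depth libraries.

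Napb, Rab3d, Unc13a and, less stably, Syt13 combined a rise in RPFs with a rise in TE. Napb had a log2 TE of -1.18 to -0.28 (median -0.69) at 25 mM and -4.85 to -0.54 (median -3.89) at 5.5 mM, and changed by 2.98 ± 0.53 with all libraries (edgeR adjusted p = 5.4e-05) and 1.13 ± 0.33 without the 6 (edgeR adjusted p = 0.0089). Rab3d had -2.51 to -0.95 (median -1.48) at 25 mM and -3.40 to -1.33 (median -2.72) at 5.5 mM, with changes of 1.10 ± 0.28 and 0.63 ± 0.22. Unc13a had 0.42 to 1.48 (median 0.99) at 25 mM and -0.72 to 0.77 (median 0.04) at 5.5 mM, with changes of 1.18 ± 0.27 and 0.40 ± 0.16. Values of the 2 conditions overlapped in each of these genes. Syt13 had -0.77 to 0.03 (median -0.33) at 25 mM and -0.82 to -0.30 (median -0.64) at 5.5 mM. Its changes of 0.42 ± 0.20 (edgeR adjusted p = 0.073) and 0.59 ± 0.14 (edgeR adjusted p = 0.0020) turned to -0.44 when scaled by library size, and the first was lost without replicate 2, 4, 6 or 7 (adjusted p of 0.120 to 0.160), in each batch alone (0.42 and 0.28), with no filter on low counts (0.59) and in limma fits of TE per culture (0.21 and 0.20). Scaling by library size also took the changes of Rab3d to 0.03, Unc13a to 0.02 and Exoc4 to 0.23, none of which passed. Exoc7 had changes of 0.56 ± 0.19 and 0.45 ± 0.16, and -0.39 when scaled by library size. In the limma fit of TE per culture with a pseudocount of 0.5 CPM it did not pass, at 0.43 (adjusted p = 0.101).

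TE fell for the cAMP sensor, a priming factor, the recycling ATPase and 2 exocyst subunits. Nsf had a log2 TE of 0.85 to 1.32 (median 1.18) at 25 mM and 1.38 to 6.43 (median 3.33) at 5.5 mM, and changed by -1.60 ± 0.50 with all libraries (edgeR adjusted p = 0.0087) and -0.70 ± 0.20 without the 6 (edgeR adjusted p = 0.0077). Its groups did not overlap. Rapgef4 had -0.91 to 0.30 (median 0.12) at 25 mM and 0.19 to 5.63 (median 2.40) at 5.5 mM, with changes of -1.93 ± 0.52 and -0.99 ± 0.31, so its TE was lower while its RPFs were higher. Exoc2 had 0.27 to 1.84 (median 1.46) at 25 mM and 1.82 to 5.14 (median 3.41) at 5.5 mM, with changes of -1.76 ± 0.37 and -1.29 ± 0.30. For Rapgef4 and Exoc2, 7 of the 8 cultures at 25 mM were below all at 5.5 mM.

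Syt7 and Exoc1, like Exoc2 above, lost footprints and TE alike. Syt7 had a log2 TE of 0.14 to 1.77 (median 0.89) at 25 mM and 0.57 to 4.27 (median 2.58) at 5.5 mM, with changes of -1.41 ± 0.35 with all libraries (edgeR adjusted p = 0.0015) and -1.53 ± 0.37 without the 6 (edgeR adjusted p = 0.0027). Exoc1 had changes of -0.75 ± 0.30 and -0.51 ± 0.20, and the first was lost without replicate 6 or 7 (adjusted p = 0.205 and 0.108). In the first batch alone, the TE change of Exoc1 was 0.0024 (edgeR adjusted p = 0.996). Unc13b changed by -1.32 ± 0.35 with all libraries and -1.28 ± 0.41 without the 6. Myo5a changed by -0.57 ± 0.26 and -1.06 ± 0.23, and the first was lost without replicate 5, 6 or 7 (adjusted p 0.144 to 0.194). Scgn, whose RPFs and deeper-library RNA both fell, had TE changes of -0.78 ± 0.44 (edgeR adjusted p = 0.14) with all libraries and 0.01 ± 0.19 (edgeR adjusted p = 0.96) without the 6. Without replicate 1 or 5, the TE of Scgn passed at changes of -1.02 and -1.08 (adjusted p = 0.072 and 0.039). It also passed in limma fits of TE per culture with pseudocounts of 0.5 and 0.1 CPM, at -1.31 and -1.32 (adjusted p = 0.021 and 0.022). All these fits kept the 5 low-depth RNA libraries. At 5.5 mM, the RNA libraries of replicates 1 and 5 are among the deeper ones, so leaving either out gives the low-depth libraries more weight.

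A further list of 75 exocytosis genes that are not among the 47, such as other syntaxins, Rab GTPases and kinesin light chains, was read in the same fits. Of 55 tested in RPFs, 7 rose (12.7%) and 6 fell (10.9%), beside 15.5% and 15.4% of all genes. Their median log2 fold change was 0.03. In RNA with all libraries, 13 of 63 were higher (20.6%) and 14 lower (22.2%), beside 16.4% and 24.2% of all genes. Without the 5, 9 of 66 went each way (13.6% each), beside 10.4% of all genes higher and 19.2% lower. The smallest p-values in RPFs belonged to Kif1a, a kinesin-3 motor of dense-core vesicles, at 146.7 to 270.8 CPM at 25 mM, against 231.9 to 385.2 CPM at 5.5 mM (log2 -0.80 ± 0.12, edgeR adjusted p = 4.1e-05). Rab8a, a GTPase of exocytic traffic, rose by 0.56 ± 0.13 (edgeR adjusted p = 0.0020), and the secretory Rab37 and the vesicle glycoprotein Sv2b fell by 0.49 (SE 0.13, edgeR adjusted p = 0.0070) and 0.69 (SE 0.19, edgeR adjusted p = 0.0087).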

How the data were processed

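Ribosome profiling and polyadenylated RNA sequencing of 16 MIN6 cultures (32 libraries) were analysed. The deposited values are raw counts per gene, which the authors made with the XPRESSyourself pipeline: after trimming and a 2-pass alignment (mouse Ensembl release 102) from which rRNA and PCR duplicates were removed, reads were counted per protein-coding gene on its longest transcript, over the exons or a truncated coding sequence. Aligner version and the treatment of reads shared by paralogs are not given in the sources used here. Symbols were found for 21826 of 21945 RNA and 21808 of 21927 RPF identifiers.

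Counts were analysed with edgeR 4.0.16 and limma 3.58.1 in R 4.3.3 (TMM within library type, filterByExpr, quasi-likelihood test of 25 against 5.5 mM with batch as covariate; TE as the interaction in 1 model). Adjusted p-values are Benjamini-Hochberg over all genes tested, called under 0.1, or under 0.01 in the case of RNA, after the study's thresholds. SEs were derived from the p-value and fold change of each test. For each culture, log2 TE was computed as log2(RPF CPM + 0.5) minus log2(RNA CPM + 0.5). The numbers in the labels name cultures and served as a block only as an alternative, as did DESeq2 1.42.0. Levels per coding length were not computed, so levels are not compared between genes. Of the 47 genes, 8 were too low to test in RPFs with all libraries (Stx1a, Rab3c, Rab27b, Rims1, Myrip, Cadps2, Doc2b and Cplx1). Per-sample values are given for genes past the RPF test, genes past the RNA or TE test with and without the libraries that stand apart, and Scgn. Members and lists were chosen with earlier results of these data known, and fits without the libraries that stand apart were chosen after seeing the data. Scripts were tested on simulated data. Figures were drawn with matplotlib 3.10.9 in Python 3.11.15. The labels call the cultures biological replicates.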

Additional observations from a re-analysis of the deposited data

Results flagged for a closer look

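In 4 of 86 groups of 8 libraries or cultures, 1 value lay far from the other 7, where chance gives about 5% of groups (1 in 20). Exoc1 RPFs in 5.5 mM replicate 6 were 91.1 CPM, against 47.6 to 65.8 CPM in the other 5.5 mM libraries. Rab3c RNA in 5.5 mM replicate 2, a low-depth library, was 12.5 CPM, against 0 to 5.56 CPM in the others. Rapgef4 RNA in 5.5 mM replicate 3, a deeper library, was 96.2 CPM, against 1.85 to 37.4 CPM in the others. The log2 TE of Exoc2 in 25 mM replicate 7 was 0.27, against 1.27 to 1.84 in the other 25 mM cultures.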

How the results depend on the processing

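No RPF call changed sign under any alternative run. The number of exocytosis genes with higher RPFs, 9, became 1 in the second batch alone and 4 without the 5 cultures of low RNA depth, and the number lower, also 9, became 3 and 5. Leaving out 1 replicate number at a time gave 6 to 10 higher and 7 to 10 lower. Over all genes it gave 973 to 1507 higher and 876 to 1593 lower. For RNA, 6 higher became 0 in the first batch alone and 3 without the 5 low-depth libraries, and 13 lower became 5 with library size scaling, 4 with the replicate block, 0 in the first batch alone and 7 without the 5. Leave-one-out gave 2 to 10 higher (10 without replicate 3, and 2 without replicate 6, 7 or 8) and 11 to 14 lower. Over all genes it gave 1024 to 2719 higher and 2360 to 3147 lower, and the first batch alone gave 0 of 12470 either way. For TE, 16 higher became 8 with library size scaling and 3 in the first batch alone, 12 lower became 0 in the first batch alone, and leave-one-out gave 14 to 16 higher and 8 to 14 lower. In the first batch, 11 of 41 exocytosis genes had a TE change at an unadjusted p under 0.05 in edgeR. Over all genes, 2525 of 10302 did. Fewer of all genes had higher TE there too, and 24 had lower TE, against 2473 of 8637 with all libraries. Over all genes, leave-one-out gave 2210 to 2887 with higher TE and 1933 to 2676 with lower TE. The cause of these differences was not tested.

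With the replicate number as a block, RPFs gave 9 higher and 9 lower, RNA 8 and 4, and TE 13 and 15. Over all genes, the block gave 1499 and 1539 in RPFs, 2111 and 1906 in RNA, and 2341 and 3033 in TE. Of the genes passing with and without the libraries that stand apart, RNA of Rab3c (edgeR adjusted p = 0.021) and TE of Syt13 (0.16) were lost. TE of Scgn passed with the block, at -1.21 (edgeR adjusted p = 0.027), in a fit that kept the low-depth libraries. The check for pairing asked that every correlation of same-numbered deviations be over 0.1. It was not met, so the block stayed an alternative. Correlations ran from 0.07 to 0.69 in RPFs (all 8 positive, 6 over 0.1) and from -0.02 to 0.26 in RNA (6 of 8 positive, 4 over 0.1). After removing batch means they were 0.0085 to 0.47 in RPFs (all 8 positive, 4 over 0.1) and -0.17 to 0.16 in RNA (3 positive, 2 over 0.1). In RPFs, replicates 1, 2, 3 and 5 then matched their own number best, and the others did not. The RPF values thus do not show the cultures to be unpaired.

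Signs turned without the 5 RNA libraries for RNA of Kif5c (0.0904), Rims2 (0.62) and Scgn (-0.96). Scgn RNA, near 0 with all libraries, was also -0.0216 with DESeq2 size factors, -0.0150 without the batch term, -0.34 in the first batch and -0.0214 in DESeq2's Wald test, and -0.14 to 0.37 in leave-one-out. For TE without the 6 libraries, signs turned for Kif5a (-0.31), Pclo (-0.27), Rims2 (-0.77), Scgn (0.0144), Stxbp3 (-0.63) and Sytl4 (-0.21). With library size scaling they turned for Exoc7 (-0.39), Stxbp3 (-0.14), Syt13 (-0.44) and Sytl4 (-0.48), and in the first batch for Exoc1, at 0.0024. RPF depth, at most 732164 counts in second-batch libraries, limits the genes with few footprints.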
